A study of Mus musculus with 8 samples.

Results

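The galactose lectin genes Asgr1, Asgr2, Mgl2 and Clec10a lie within a short stretch of mouse chromosome 11, and their RNA was followed here in macrophages with and without interleukin-4 (IL-4). Members were all transcripts of loci that hold an annotated transcript inside a fixed window of chromosome 11 around these genes (genome build mm9). The rule itself uses position and no measured value, but the region was chosen with earlier results of these data known. The rule gave 15 of the 89219 transcripts of the merged annotation, in 3 of 31020 loci and 4 genes. Asgr1 had 2 transcripts, Asgr2 had 1, Mgl2 and Clec10a had 5 each, and 2 more transcripts joined exons of Mgl2 to exons of Clec10a. Of the 15 transcripts, 9 were annotated ones and 6 had been assembled from the reads.

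The cells were bone marrow-derived macrophages of the C57BL/6 strain, which are grown in culture from mouse bone marrow. Untreated cells gave 4 libraries, and cells that had received IL-4, a cytokine of allergic and antiparasite immunity, gave another 4. All were made from total RNA depleted of ribosomal RNA. The dose and time of IL-4 and the age and sex of the mice are not given in the labels used here. The series design calls the 4 samples of a group biological replicates. Nothing says that they came from separate animals, so a p-value measures only how these samples vary, which may be technical. Total counts per library ran from 23071022 to 27783417. The cell type could not be checked against marker genes, because 0 of the files' identifiers occurred in the symbol tables at hand.

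C-type lectins are receptors that bind sugars through a calcium-dependent carbohydrate recognition domain. The galactose group recognises terminal galactose and N-acetylgalactosamine, sugars that are exposed on glycoproteins when sialic acid is lost and on some tumour and parasite glycans. Asgr1 and Asgr2 encode the subunits of the asialoglycoprotein receptor, best known from hepatocytes, where it clears desialylated glycoproteins from the blood. Clec10a (CD301a) and Mgl2 (CD301b) encode the macrophage galactose-type lectins, found on macrophages and dendritic cells and widely used as markers of macrophages exposed to IL-4.

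All 4 genes were on the plus strand, and 0 other loci overlapped them. On mm9 Asgr1 spanned 69867871 to 69871396, Asgr2 69906146 to 69919688, Mgl2 69943859 to 69951050 and Clec10a started at 69980157 and spanned 4180 nt. The files carry no gene symbols, so the names were checked by distance. Measured from the end of Asgr2, the ends of the other genes differed by 0 nucleotides (nt) for Asgr1, 7 nt for Mgl2 and 1 nt for Clec10a from the distances in RefSeq (GRCm38.p6). The starts agreed less well, since RefSeq gives longer spans for Asgr1 (8987 against 3526 nt) and Mgl2 (7418 against 7192 nt). In RefSeq, Dlg4 precedes Asgr1, Slc16a11 follows Clec10a, and the predicted genes Gm32946 and Gm12311 lie on either side of Asgr2. The authors' annotation holds Mgl2 and Clec10a as a single locus, XLOC_003600, so a read count of that locus stands for both genes. Transcripts were therefore split by position to give each gene a level of its own.

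The genes shared a run of exon lengths. Exons 4 to 9 of Mgl2 measured 96, 72, 72, 87, 152 and 107 nt, and the same run of lengths occurred in Clec10a. Among all 89219 transcripts this run was found at 1 locus only, the joined one, in 8 transcripts. Asgr1 carried the run 96, 72, 87, 152 and 107 nt and Asgr2 the run 96, 72, 87, 146 and 107 nt, each at 1 locus. The macrophage lectins thus had an additional 72-nt exon that the asialoglycoprotein receptor genes lacked, and Asgr2 differed from the others at the exon of 146 nt.

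**Figure D1:**
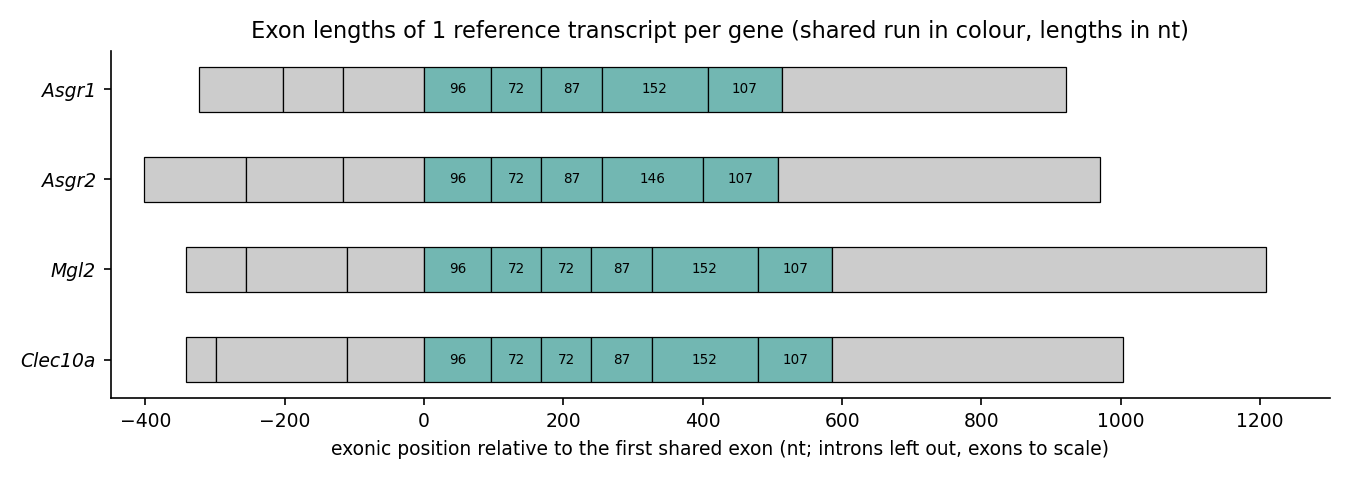
Exons of the shortest annotated transcript of each gene, drawn to scale along the x axis in nt with introns left out and aligned at the shared 96-nt exon. Coloured exons are the shared run with their lengths: 6 exons in Mgl2 and Clec10a, 5 in Asgr1 and Asgr2.

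Promoter windows from 250 bases before to 50 bases from an annotated start were taken from RefSeq's annotation of GRCm38.p6, where 3 of the 4 genes had an entry. For Asgr1 and Mgl2 that start is not the first base of the RefSeq gene, which begins further upstream. The windows are shown so that the start of Mgl2, the gene with the largest rise, can be set beside those of its scarce neighbours. The start used for Mgl2 lay 37713 nt from that of Asgr2 both in the promoter entries and in the files. The Asgr1 window printed is the one of 2 whose start is 14 nt off the files' start by the same measure. The windows on the plus strand of chromosome 11 are chr11:70130107-70130406 for Mgl2, chr11:70092394-70092693 for Asgr2 and chr11:70054105-70054404 for Asgr1. Capitals mark matches to the letters searched, which are given after the sequences.
Mgl2: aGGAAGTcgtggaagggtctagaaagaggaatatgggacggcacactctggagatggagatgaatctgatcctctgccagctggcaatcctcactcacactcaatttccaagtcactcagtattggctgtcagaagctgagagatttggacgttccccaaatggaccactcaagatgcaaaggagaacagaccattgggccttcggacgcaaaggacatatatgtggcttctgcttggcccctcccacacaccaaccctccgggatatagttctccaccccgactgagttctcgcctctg
Asgr2: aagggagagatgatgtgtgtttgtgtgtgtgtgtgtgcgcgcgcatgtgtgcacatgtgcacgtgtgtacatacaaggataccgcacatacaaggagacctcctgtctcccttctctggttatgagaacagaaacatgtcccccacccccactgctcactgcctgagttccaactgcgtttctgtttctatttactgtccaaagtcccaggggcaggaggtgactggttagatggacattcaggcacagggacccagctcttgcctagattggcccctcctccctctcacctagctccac
Asgr1: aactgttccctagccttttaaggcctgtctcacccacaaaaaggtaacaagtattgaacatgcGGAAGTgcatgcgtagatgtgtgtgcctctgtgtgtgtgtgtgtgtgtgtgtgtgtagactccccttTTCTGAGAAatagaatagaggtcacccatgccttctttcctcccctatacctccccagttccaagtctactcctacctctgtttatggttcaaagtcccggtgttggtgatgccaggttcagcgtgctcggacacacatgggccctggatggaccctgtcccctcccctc

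The letters were chosen after the sequences were seen and were searched on both strands. STAT6, the transcription factor activated by the IL-4 receptor, is known to prefer TTC and GAA separated by 4 bases (the STAT6 motif), while other STAT factors prefer TTCNNNGAA. GGAAGT is a core of sites for ETS factors, which include the macrophage factor PU.1, and TATAAA is a TATA box. The Mgl2 window held GGAAGT at positions 2 to 7, counted from its first base, and no match to the other 3. The Asgr1 window held TTCNNNGAA at positions 131 to 139 and GGAAGT at positions 64 to 69. The Asgr2 window held none of the 4. Among 32851 promoter windows of the same length, 6.95% held the STAT6 motif, 8.3% TTCNNNGAA, 23.8% GGAAGT and 13.6% TATAAA. A match is a description of the letters, and its absence says only that they are not in this window.

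Mgl2 was scarce in untreated cells and among the 100 most abundant genes with IL-4. FPKM, the number of fragments scaled to transcript length and library depth, was summed over the transcripts of a gene. It was 1.94, 1.03, 1.04 and 1.20 in untreated libraries 1 to 4. In IL-4 libraries 1 to 4 it was 678, 623, 679 and 788. All IL-4 libraries were far above all untreated ones, and 24.8% of the genes tested had IL-4 libraries all higher in this way. The means were 1.30 ± 0.435 and 692 ± 68.9 FPKM (SD, n = 4). On the scale of log2(FPKM + 0.1) the difference was 8.99 (SE 0.18, limma, adjusted p = 9.886e-10), which corresponds to 507-fold. By this difference Mgl2 ranked 5 among 10258 tested genes, where a gene means a group of overlapping annotated transcripts. By mean level it ranked 9788 of 27976 in untreated and 71 of 27976 in IL-4 libraries. The size of the difference depended on how it was computed. It was 8.25 with a pseudocount of 1, and 8.23 when the 2 joined transcripts were added to the gene, an alternative chosen after the data were seen. In bulk RNA, more cells with the transcript and more RNA per cell cannot be told apart.

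Clec10a, the other macrophage lectin, rose by a smaller factor from a higher base. Its summed FPKM was 13.2, 7.53, 7.60 and 12.4 in untreated libraries 1 to 4. It was 43.7, 32.9, 37.6 and 61.8 in IL-4 libraries 1 to 4. The groups did not overlap, and 24.8% of the genes tested had IL-4 libraries all higher. Libraries 1 and 4 were the higher ones in both groups. The means were 10.2 ± 3.05 and 44.0 ± 12.6 FPKM (SD, n = 4). The difference on the log2(FPKM + 0.1) scale was 2.11 (SE 0.24, limma, adjusted p = 5.407e-05), or 4.31-fold. How reads that match both Mgl2 and Clec10a were assigned is not known here, so the level of each gene carries that uncertainty. The effect on either gene was not tested. Clec10a moved from rank 4742 to rank 1345 of 27976 genes by mean level.

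**Figure D2:**
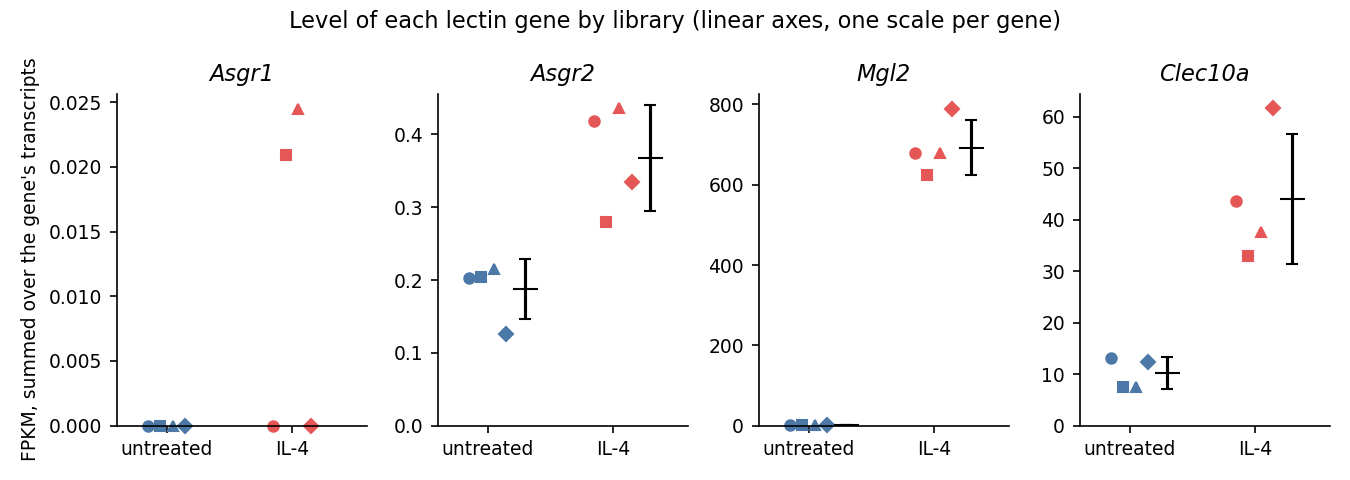
Summed FPKM of the 4 genes (y axes, linear, one scale per gene) in untreated and IL-4 libraries (x axes); symbols are libraries, with 1 symbol shape for each replicate number, and black marks are the mean with 1 SD (not drawn for Asgr1). Mgl2 lay between 623 and 788 FPKM with IL-4 and under 2 FPKM without it, while Clec10a and Asgr2 shifted less.

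The order of the macrophage lectins was the opposite in the 2 groups. Clec10a exceeded Mgl2 by 6.79-fold, 7.29-fold, 7.34-fold and 10.4-fold in untreated libraries 1 to 4. With IL-4, Mgl2 exceeded Clec10a by 15.5-fold, 18.9-fold, 18.1-fold and 12.8-fold. With the joined transcripts added to both genes, the order was the same but the factors were smaller, 4.25 to 5.90 without IL-4 and 8.99 to 11.2 with it. Since FPKM is a level per length, the levels of the genes can be set side by side within a library. Their ratios carry the uncertainty about reads that match both genes. The log2 ratio of Mgl2 to Clec10a was -2.97 ± 0.27 without IL-4 and 4.01 ± 0.26 with it (SD, n = 4). The ratio was higher by 6.98 with IL-4 (two-sided exact permutation p = 0.0286, adjusted over 3 gene pairs 0.0429). That p is the smallest that 4 against 4 libraries allow. Taken within the 4 same-numbered pairs, the difference did not pass (exact sign-flip p = 0.125, the smallest that 4 pairs allow). With the joined transcripts added to both genes it was 5.61. Mgl2 made up 10.4% ± 1.57 of the summed FPKM of the joined locus in untreated libraries and 90.8% ± 0.881 with IL-4. For Clec10a the shares were 81.1% ± 2.30 and 5.69% ± 0.992.

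**Figure D3:**
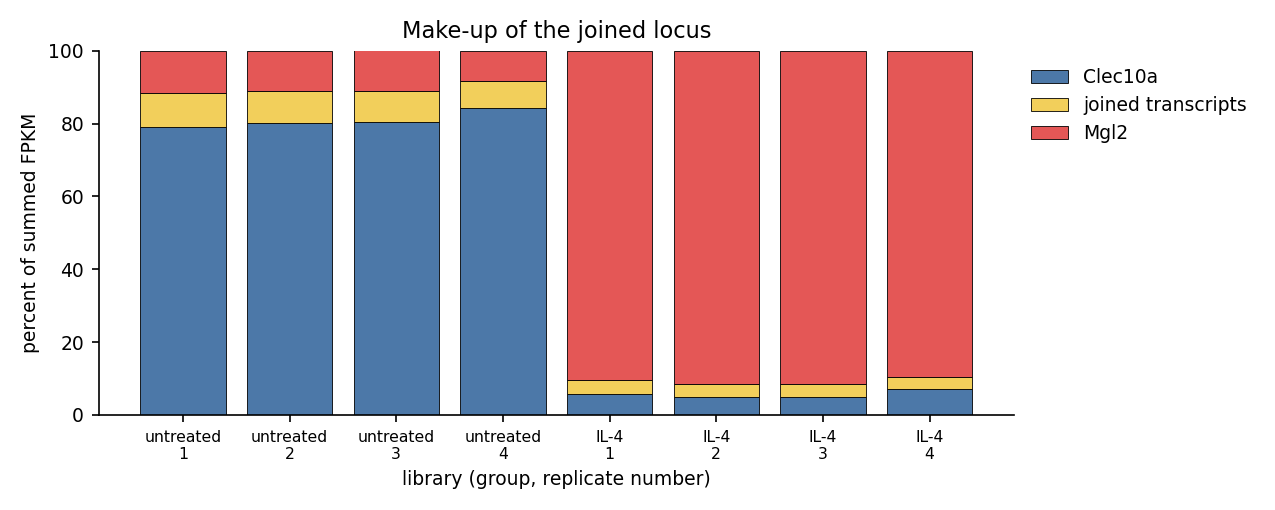
Percent of the summed FPKM of the joined locus (y axis) held by Clec10a, by the joined transcripts and by Mgl2, stacked, in each of the 8 libraries (x axis). Clec10a held 79.2% to 84.4% of it without IL-4, and Mgl2 held 89.7% to 91.5% with IL-4.

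The subunits of the asialoglycoprotein receptor were scarce. Asgr2 had 13, 18, 10 and 6 reads in untreated libraries 1 to 4 and 30, 25, 22 and 22 reads in IL-4 libraries 1 to 4. All IL-4 libraries were higher than any untreated one, as were those of 18.7% of the loci tested. CPM, the count scaled to the library total, was 0.471 ± 0.177 and 0.948 ± 0.149 (SD, n = 4). Asgr2 rose 2.13-fold by its counts (log2 fold change 1.09, SE 0.27, edgeR, adjusted p = 0.005909). Against a minimum change of 1.5-fold the rise did not pass (glmTreat of edgeR, adjusted p = 0.0722). In FPKM, Asgr2 stood at 0.204, 0.205, 0.216 and 0.126 untreated and at 0.418, 0.280, 0.436 and 0.335 with IL-4. These levels were under the minimum of 1 FPKM in 4 libraries, so Asgr2 was not in the FPKM test. With that minimum removed, its difference was 0.70 on the log2(FPKM + 0.1) scale (SE 0.16, limma over genes, adjusted p = 0.00977). The same values, entered as its only transcript in the fit over transcripts, did not pass (SE 0.18, limma, adjusted p = 0.0578).

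Asgr1 was at the limit of what the depth can show. Its locus had 0 reads in the 98512800 counts of the untreated group, which allows up to 3 reads or 0.0305 CPM. With IL-4 it had 0, 1, 1 and 1 reads in libraries 1 to 4, 3 of 104643109 counts. Both groups lie at or under that floor, so no fold is given. No difference between the groups was detectable for Asgr1 at this depth. In FPKM, all 4 untreated libraries and IL-4 libraries 1 and 4 list Asgr1 at 0, and IL-4 libraries 2 and 3 list it at 0.0209 and 0.0245.

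The log2 ratio of Mgl2 to Asgr2 was 2.78 ± 0.55 without IL-4 and 10.90 ± 0.31 with it, a difference of 8.12 (exact permutation p = 0.0286, adjusted 0.0429). Within the 4 pairs it could not pass, since its exact sign-flip p of 0.125 is the smallest that 4 pairs allow. The difference was 7.31 with the joined transcripts added. For Clec10a to Asgr2 the log2 ratio was 5.75 ± 0.71 and 6.88 ± 0.47. That difference of 1.14 did not pass (exact permutation p = 0.0571, adjusted 0.0571), and it passed when untreated library 4 was left out (1.43, exact permutation, adjusted p = 0.0286). Untreated library 4 had the lowest Asgr2 level. The difference also passed, at 1.70, with the joined transcripts added to Clec10a (exact permutation, adjusted p = 0.0286).

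At the level of transcripts, 8 of the 15 members reached 1 FPKM in at least 4 libraries and were tested, and each rose (limma, adjusted p under 0.05). Among all 17500 transcripts tested, 38.4% changed in either direction and 19.8% rose. Of the 8, 5 were at 1 FPKM in fewer than 4 untreated libraries (TCONS_00010610, TCONS_00010612, TCONS_00010613, TCONS_00010615 and TCONS_00010618). They met the minimum through the IL-4 libraries, so nothing is read from the 8 against that background. With no minimum, 11 of the 15 passed. The share of all transcripts that passed in that fit is not given here, so nothing is read from this count. At the level of genes, Mgl2 and Clec10a were the 2 of 4 tested, and both rose; of 10258 genes, 53.3% changed and 26.4% rose. At the level of counted loci, XLOC_003600 and Asgr2 were the 2 of 3 tested, and both rose, while of 13761 loci 51.8% changed and 25.6% rose. The count of XLOC_003600 was 681, 430, 378 and 589 untreated and 40119, 39313, 37107 and 48293 with IL-4. In CPM the locus stood at 21.1 ± 5.76 and 1575 ± 154 (log2 fold change 6.32, SE 0.21, edgeR, adjusted p = 3.951e-09). The 80.0-fold rise of the count in the edgeR fit lies between the rises of its 2 genes.

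Mgl2 was represented mainly by 2 annotated transcripts that start at the same base. TCONS_00010613 has 10 exons and 1550 exonic nt. It was at 1.29, 0.926, 0.645 and 0.926 FPKM untreated and at 506, 471, 509 and 586 FPKM with IL-4. TCONS_00010615 has 9 exons and 1703 exonic nt. It keeps the 144-nt last intron, has a longer form of the third exon and ends slightly further on. It was at 0.653, 0.106, 0.390 and 0.274 FPKM untreated and at 170, 151, 170 and 199 FPKM with IL-4. With no minimum FPKM the log2 differences were 8.98 (SE 0.18) and 8.71 (SE 0.38). Both passed in that fit (limma, adjusted p = 2.339e-06 and 4.577e-05). A pseudocount of 1 gave 8.06 and 7.01.

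No difference in the shares of these transcripts within Mgl2 passed a test. The smallest exact permutation p that 4 against 4 libraries allow is 0.0286. After adjustment over 6 transcripts a single share could not pass, so several had to reach that p together. TCONS_00010613 made up 66.4%, 89.8%, 62.3% and 77.2% of Mgl2 untreated, and 74.7%, 75.6%, 74.9% and 74.4% with IL-4. The untreated libraries were spread widely and the IL-4 libraries narrowly. The means were 73.9% ± 12.3 and 74.9% ± 0.504 (exact permutation p = 1, adjusted over 6 transcripts 1). The other Mgl2 transcripts were minor. TCONS_00010614 reached 0.775 to 2.39 FPKM with IL-4 and TCONS_00010611, whose first exon begins upstream, 0.0493 to 0.141 FPKM. TCONS_00010616, which lacks the first exon, was listed at no more than 1.64e-05 FPKM in any of the 8 libraries.

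Clec10a was spread more evenly over 4 transcripts of similar length. TCONS_00010620 had the highest mean in both groups, at 4.11, 3.09, 3.73 and 5.73 FPKM untreated and 16.2, 14.7, 16.9 and 26.0 FPKM with IL-4. TCONS_00010621 stood at 4.79, 1.67, 1.25 and 2.74 FPKM and at 12.6, 7.01, 7.57 and 16.6 FPKM, above TCONS_00010620 in untreated library 1 alone. TCONS_00010617 was at 1.19 to 3.23 FPKM untreated and 5.11 to 11.7 FPKM with IL-4. TCONS_00010618 was at 0.653 to 1.44 FPKM untreated and 4.54 to 7.15 FPKM with IL-4. In each of the 4 all IL-4 libraries were higher than any untreated one, as in 19.9% of the transcripts tested. TCONS_00010618 met the minimum through the IL-4 libraries, so it is not set against that share. The log2 differences ran from 1.89 to 2.43, with 1.76 for TCONS_00010618 at a pseudocount of 1. None of their shares of Clec10a passed a test between the groups (exact permutation, adjusted p = 1 for each). As for Mgl2, a single share could not pass after adjustment over 6 transcripts. TCONS_00010620 held 41.9% ± 7.89 untreated and 42.2% ± 3.58 with IL-4. The fifth, TCONS_00010619, was at 0.262 to 0.411 FPKM untreated and at 0.589 to 1.03 FPKM with IL-4, under the minimum for the test.

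**Figure D4:**
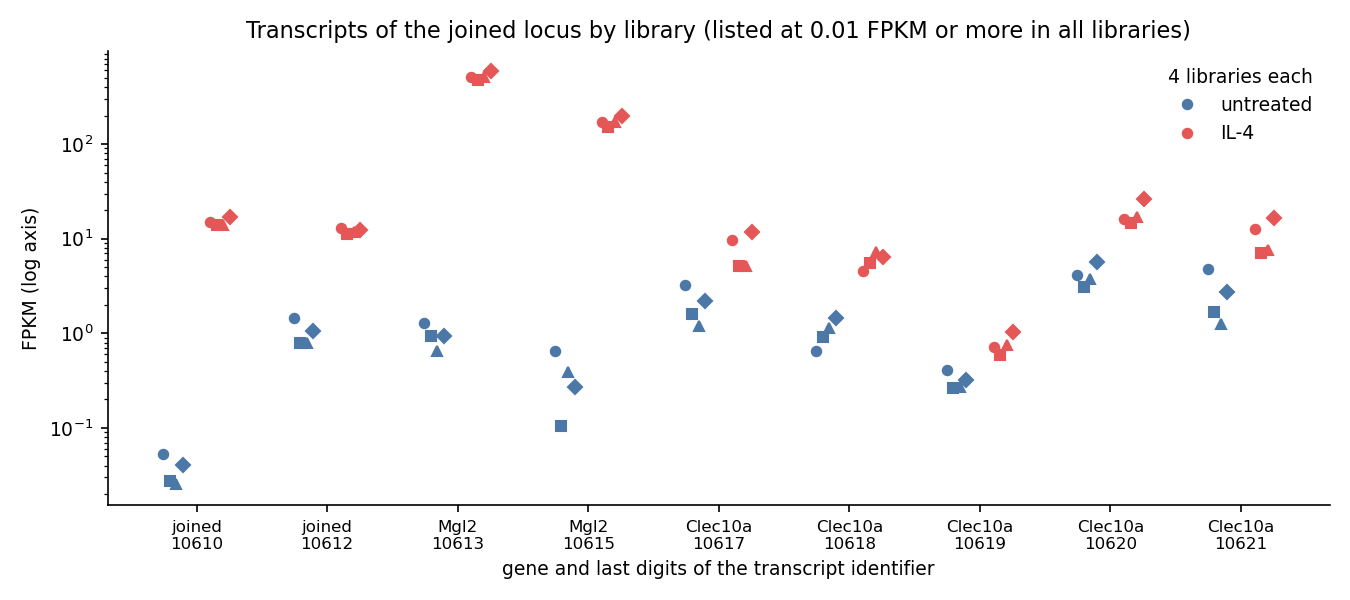
FPKM on a log axis (y) of the transcripts of the joined locus that were listed at 0.01 FPKM or more in all 8 libraries (x axis, gene and last digits of the identifier), with untreated libraries in blue and IL-4 libraries in red. The Mgl2 transcripts reach 151 to 586 FPKM with IL-4, and the groups do not overlap for any transcript drawn. Among all transcripts tested, 19.9% had IL-4 libraries all higher, and some drawn met the test's minimum only through the IL-4 libraries.

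The related genes shared a splicing feature. In both, the exon before the 96-nt one occurs in a form of 114 nt and a form of 111 nt, because it can begin at either of 2 positions 3 nt apart. The positions are 69948551 and 69948554 in Mgl2 and 69982085 and 69982088 in Clec10a. In Clec10a the longer form made up 38.4% ± 4.14 of the gene's FPKM untreated and 40.2% ± 1 with IL-4, with overlapping groups. Both genes also have a short last intron, of 144 nt in Mgl2 and 134 nt in Clec10a, that some transcripts splice and others keep. Transcripts that splice it held 33.9% ± 2.20 of Clec10a untreated and 33.5% ± 1.67 with IL-4, again with overlapping groups. In Mgl2 they held 73.9% ± 12.3 and 75.1% ± 0.439. The main Mgl2 transcripts differ in both features at once, so these files cannot give a separate share for each. The features were chosen after the values were seen, and no test was made of them.

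Assembled transcripts that run from Mgl2 into Clec10a were higher with IL-4 in all libraries. Among all transcripts tested, 19.9% had IL-4 libraries all higher, a share not read against these, which met the minimum through IL-4. TCONS_00010612 joins the first 8 exons of Mgl2, the last of them 152 nt long, to the 107-nt exon of Clec10a. It was at 1.46, 0.800, 0.794 and 1.05 FPKM untreated and at 12.9, 11.1, 11.8 and 12.3 FPKM with IL-4, a log2 difference of 3.46 (SE 0.18, limma with no minimum FPKM, adjusted p = 9.538e-05). TCONS_00010610 crosses 1 exon earlier, from the 87-nt exon of Mgl2 to the 152-nt exon of Clec10a. Its first exon, of 2855 nt, begins upstream of the annotated start of Mgl2 and makes up most of its 3983 exonic nt. TCONS_00010610 was at 0.0528, 0.0273, 0.0254 and 0.0407 FPKM untreated and at 15.0, 14.0, 14.0 and 16.8 FPKM with IL-4. Its log2 difference was 6.78 (SE 0.09, limma with no minimum FPKM, adjusted p = 2.851e-07). The fit without a minimum is given here because these transcripts met it through the IL-4 libraries. At a pseudocount of 0.01 it came to 8.36 and at 1 to 3.94. For TCONS_00010612 it was 2.69 with a pseudocount of 1. Both crossings fall between exons of the shared run of lengths, with the exons in the same order as in either gene. The sequences of these exons were not compared here. How the authors' estimate assigns reads that match both genes is not known from these files. The levels of the joined transcripts and of both genes are therefore uncertain. An FPKM covers the whole transcript, so for TCONS_00010610 it does not separate reads across the join from reads in its long first exon. Whether reads cross the joins was not tested. The joined transcripts held 8.5% ± 0.734 of the FPKM of the locus untreated and 3.55% ± 0.194 with IL-4. With IL-4 they summed to 25.1 to 29.1 FPKM, against 32.9 to 61.8 FPKM for Clec10a alone.

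The loci whose pattern over the 8 libraries was most like that of XLOC_003600 were found by Pearson's r of log2 CPM. With libraries in 2 groups of 4, r mostly reflects the step between the groups, and 182 of 13760 other loci had r over 0.99. The closest was a single-exon unannotated locus on chromosome 7 (147243753 to 147246156, r = 0.9997), which went from 0.0205 ± 0.0237 to 1.87 ± 0.104 CPM. Its untreated mean lies under the 0.0305 CPM that 3 reads make in that group, so its r rests on few reads there. Next came protein-coding loci on chromosome 7 (39001926 to 39013128, r = 0.9986, and 17490817 to 17498822, r = 0.9985). The former rose from 2.74 ± 0.536 to 88.5 ± 6.54 CPM, the latter from 3.29 ± 0.603 to 24.7 ± 2.07 CPM. Protein-coding loci on chromosome 11 (100818051 to 100831931, r = 0.9985) and chromosome 10 (53624485 to 53795622, r = 0.9981) followed. Asgr2 had 6 to 30 reads in a library, so its r values rest on few reads. For Asgr2 the closest was a protein-coding locus on chromosome 12 (77449585 to 77471329, r = 0.9812), and 0 loci had r over 0.99. The other 4 had r from 0.9726 to 0.9800. They lie on chromosome 5 (73713106 to 73729878), chromosome 11 (41312179 to 41314415), chromosome 16 (21389155 to 21389650) and the X chromosome (136991142 to 137010769).

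More of the loci around the lectins fell than rose. Within 500000 nt to either side of the window, 65 other loci held annotated transcripts and 38 were tested. Of these, 8 rose and 18 fell (edgeR, adjusted p under 0.05), against 25.6% and 26.2% of all loci. The median log2 fold change was -0.31, against -0.02 over all tested loci, and the highest was 1.18. The nearest on the left, at 69831849 to 69859033, fell from 5.07 ± 0.695 to 3.46 ± 0.809 CPM (log2 fold change -0.44, SE 0.17, edgeR, adjusted p = 0.0482). The nearest on the right, at 70027412 to 70032033, fell from 0.537 ± 0.0898 to 0.249 ± 0.0927 CPM (log2 fold change -0.99, SE 0.31, edgeR, adjusted p = 0.0187). Of the 5 nearest on the left, 4 were tested, with log2 fold changes from -0.47 to 0.29. On the right 3 were tested, from -1.14 to -0.46. The largest changes in the neighbourhood were falls, all on the right. A 16-exon protein-coding locus at 70264659 to 70279701 fell from 8.32 ± 1.37 to 0.816 ± 0.334 CPM, 9.52-fold in the edgeR fit. A 5-exon locus at 70311329 to 70324686 fell from 1.28 ± 0.164 to 0.230 ± 0.0313 CPM, 5.10-fold in that fit. A 16-exon locus at 70246002 to 70256397 fell from 161 ± 13.3 to 51.1 ± 3.71 CPM, 2.93-fold in that fit.

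**Figure D5:**
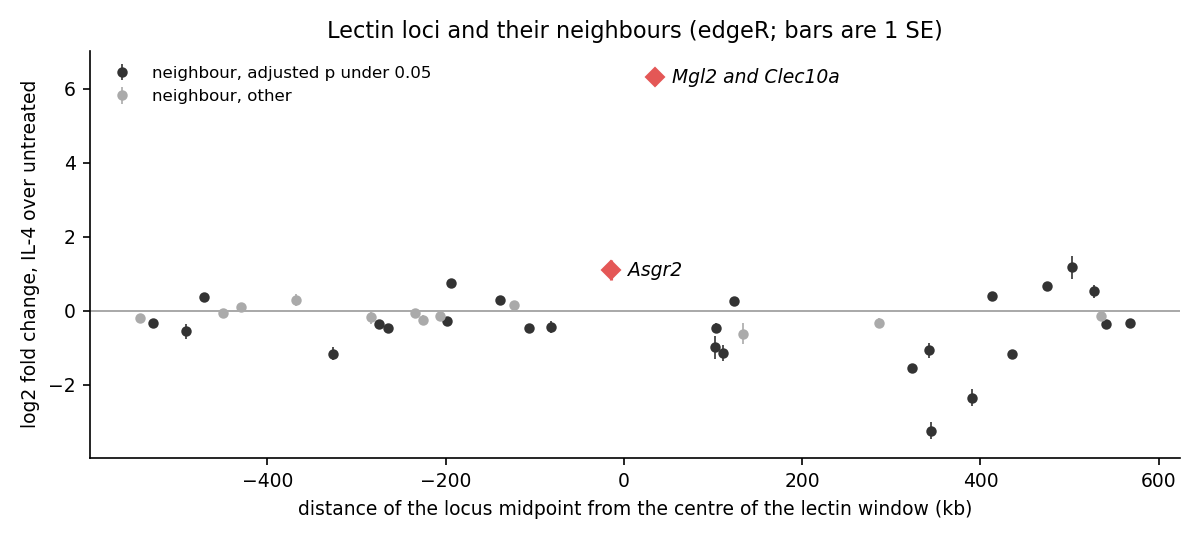
Log2 fold change of IL-4 over untreated (y axis, edgeR, bars are 1 SE) against the distance of each tested locus from the centre of the lectin genes' window in kb (x axis). The joined locus of Mgl2 and Clec10a at 6.32 stands above all 38 neighbours, whose highest value is 1.18, and Asgr2 is at 1.09.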

How the data were processed

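RNA was measured in 4 untreated and 4 IL-4-treated samples. The submitters' processing notes name CASAVA 1.8.2, TopHat2 2.0.9, Cufflinks 2.1.1, HTSeq and the build mm9, without settings. Whole-number counts per locus and FPKM per transcript were used as the authors deposited them, and exon positions come from the deposited annotation. The sources used here do not state how strand, or reads shared by several loci, were handled. All value columns were matched to a sample (0 left over).

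Counts were tested over all loci with edgeR 4.0.16 in R 4.3.3 (TMM factors, default filter, quasi-likelihood, two-sided). FPKM were tested over all transcripts and genes with limma 3.58.1 on log2(FPKM + 0.1), which understates the change of low values, requiring 1 FPKM in at least 4 libraries (3 with a library left out). P-values were adjusted by Benjamini-Hochberg over the whole table, with a threshold of 0.05. A gene was a group of overlapping annotated transcripts of a locus. Assembled transcripts joined the gene whose exons they overlap, and those overlapping several were kept apart. CPM is the count scaled to the library total. For ratios and shares an exact permutation test was used (two-sided). The floor of 3 counts covers counting error only, and the depth of an FPKM value is unknown. The edgeR and limma fits were also run on simulated data, and the outcome is not given here. Changes were placed there only at untreated levels above that of Asgr2, so members as scarce as Asgr2 were not covered.

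Same-numbered libraries deviated together: the correlations of their deviations from the group means over 13761 loci were 0.390, 0.150, 0.228 and 0.179. The best-correlated untreated library had the same number for IL-4 libraries 1, 3 and 4, but for IL-4 library 2 it was untreated library 3. Same-numbered libraries were treated as pairs in an alternative fit. Named items were all members, the 5 loci most like each counted member, and the neighbourhood with its nearest and 3 largest changes. Members, lists and the region were chosen with earlier results of these data known. The symbol lists of lectins, IL-4 genes and cell markers matched 0 identifiers and were not used.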

Additional observations from a re-analysis of the deposited data

Results flagged for a closer look

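In 35 groups of 4 libraries, 3 had a library set apart by a gap beyond Dixon's critical value for 4 values, where chance sets apart about 1 in 20. For Asgr2 FPKM the lowest untreated library, number 4, lay 0.866 of the range below the next. For the assembled Mgl2 transcript TCONS_00010611 the lowest IL-4 library, number 2, lay 0.867 of the range below. For the Asgr1 locus, IL-4 library 1 with 0 reads lay 0.863 of the range in CPM below the others, which had 1 read each.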

How the results depend on the processing

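Under 16 alternatives for loci, 17 for genes and 15 for transcripts (other factors, filters, pseudocounts, quantile normalization, DESeq2, a pairing block, libraries left out), Mgl2, Clec10a and the joined locus kept their rise. Their log2 differences ran from 8.23 to 9.18, from 1.93 to 2.67 (2.67 with joined transcripts added, chosen after seeing the data) and from 6.20 to 6.48. Asgr2 ran from 0.90 to 1.32 by counts and lost its call only against a change of 1.5-fold. Of the 3 member loci, 1 was called against 1.5-fold (2467 loci in all) and 1 with at least 1 CPM required in 4 libraries, since Asgr2 was then not tested. With single libraries left out, 6537 to 7696 loci were called, 2 member loci, 2 genes and 8 to 9 member transcripts. Nothing is read from the gene and transcript counts, since the shares of all genes and transcripts in those fits are not given. With the replicate block 7965 loci were called, and no call of a member locus, gene or transcript changed. Sign flips within 4 pairs give an exact p of 0.125 at the least, so with the replicate block the ratios (Mgl2 to Clec10a 6.98, Mgl2 to Asgr2 8.12) cannot pass. Without single libraries these ran from 6.85 to 7.10 and from 7.95 to 8.28, and that of Clec10a to Asgr2 from 0.92 to 1.43. It passed without untreated library 4 and, at 1.70, with the joined transcripts added, where the other ratios were 5.61 and 7.31. In all, 0 transcript shares passed under any alternative run. With the replicate block none could pass, for the same reason as the ratios. In the other runs a single share could not pass after adjustment, so nothing is read from this count. Read depth limits Asgr1 and Asgr2.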
